A study of Mus musculus with 24 samples.

Results

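Dopamine receptor and catecholamine breakdown genes were followed in the prefrontal cortex (PFC) across control, passive coping (PS) and active coping (AS) mice treated with saline or dexamethasone (DEX). The members were the dopamine receptors Drd1, Drd2, Drd4 and Drd5, the phosphoprotein gene Ppp1r1b and the monoamine oxidases Maoa and Maob. They were found by gene symbol, and 5 of these 7 genes were among the 14074 genes of the count table. Drd2 and Drd4 were not analysed here. All 5 present members were among the 14060 genes tested.

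Bulk RNA-seq was available from 24 male C57BL/6 mice, 1 library per mouse and 4 mice in each of 6 groups. PS and AS animals had been exposed to social defeat by CD1 aggressors for 30 days and were separated by clustering of how they behaved while the aggressor was near but not attacking, while controls received no defeat and were housed singly before testing. A day after the last session each animal was injected with saline or with DEX, a synthetic glucocorticoid, at 2 mg/kg, and tissue was taken 6 h later. The dissected block joined secondary motor, anterior cingulate, orbital, prelimbic and infralimbic cortex, so that the values are averages over areas and cell types. In such bulk tissue, fewer cells of a type and less RNA per cell cannot be told apart.

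Dopamine reaches the PFC from midbrain neurons and acts there through 2 receptor families. Drd1 and Drd5 encode the D1-like receptors, which couple to stimulatory G proteins and raise cyclic AMP. Drd2 and Drd4 encode D2-like receptors, which lower it. Ppp1r1b encodes DARPP-32, a protein that turns into an inhibitor of protein phosphatase 1 once protein kinase A has phosphorylated it and thereby carries D1-like signals onward. Maoa and Maob encode mitochondrial enzymes that deaminate monoamines. MAO-A is the main form in catecholaminergic neurons, whereas MAO-B is abundant in astrocytes and serotonergic neurons.

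Between 21121869 and 59439645 reads per library were recovered, with medians of 34242532 and 37876626 in saline- and DEX-treated AS animals and between 22869703 and 24187702 in the other groups. Fkbp5, a classical glucocorticoid target, rose with DEX in controls by 2.26 on the log2 scale and in PS by 2.00 (limma, adjusted p = 8.11e-13 and 1.19e-11), in the direction of the treatment labels. Summed markers of the olfactory bulb exceeded 1000 normalized counts in 5 libraries (saline-treated control 117, PS 2 and AS 14, DEX-treated control 122 and PS 34). Summed markers of the deep cortical layers were under 6000 in 3 libraries (DEX-treated control 101 and saline-treated AS 8 and 40). The sum and the mean log2 level of these markers, centred over the libraries, ranked libraries differently. On the latter DEX-treated control 101 was at −0.25 and saline-treated PS 28, 62 and 68 were at −0.27, −0.29 and −0.30. Member and marker results that rest on the 5 or the 3 libraries are given below with and without them.

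The members differed widely in level. Per kilobase of exon, mean normalized counts over the 24 libraries were 820 for Ppp1r1b, 275 for Maob, 198 for Maoa, 33.7 for Drd1 and 27.0 for Drd5. The receptors were read thinly, with 53 to 285 reads per library for Drd1 and 21 to 178 for Drd5. They also varied the most, since the highest library exceeded the lowest 3.05-fold for Drd1 and 9.21-fold for Drd5, compared with 1.94-fold for Ppp1r1b, 1.55-fold for Maob and 1.26-fold for Maoa. In an F-test of limma over all 6 groups, none of the 5 members passed an adjusted p of 0.1, compared with 14.9% of all genes. Their adjusted p-values were 0.111 for Maob, 0.126 for Ppp1r1b, 0.218 for Drd5, 0.239 for Maoa and 0.271 for Drd1, and the unadjusted test was under 0.05 for Maob and Ppp1r1b.

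**Figure D1:**
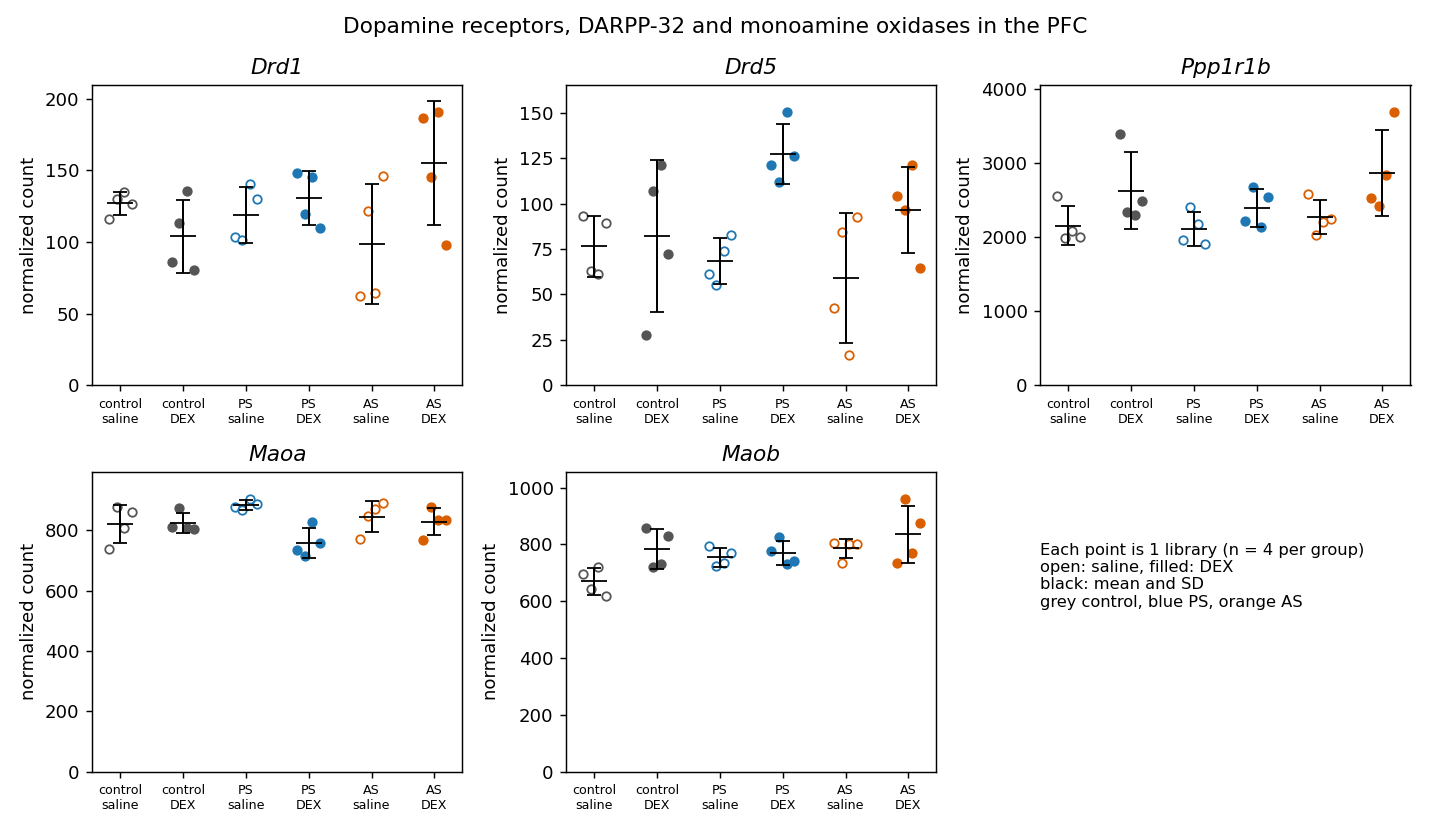
Normalized counts of the 5 members in each library by group, with open points for saline, filled points for DEX and black marks for the mean and SD of 4 libraries. Drd1 spread most within both AS groups and Drd5 within DEX-treated control and saline-treated AS animals, Maoa lay lower in every DEX-treated than in every saline-treated PS library, and Maob was lowest in saline-treated controls.

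Drd1 (ENSMUSG00000021478.6) lies on chromosome 13, from 54051183 to 54055705 on the minus strand of mm10. Drd5 (ENSMUSG00000039358.3) lies on chromosome 5, from 38319367 to 38322518 on the plus strand. Because both receptor genes were compared after a glucocorticoid and varied together across libraries, their RefSeq promoter windows (GRCm38.p6) are shown, each from 250 bases before to 50 after the annotated start. Maoa, which fell in one DEX comparison, is shown beside them. Capitals mark GC boxes (GGGCGG or CCGCCC), and the sequences read 5′ to 3′ along the gene.
Drd1, chr13:54055609-54055908, minus strand: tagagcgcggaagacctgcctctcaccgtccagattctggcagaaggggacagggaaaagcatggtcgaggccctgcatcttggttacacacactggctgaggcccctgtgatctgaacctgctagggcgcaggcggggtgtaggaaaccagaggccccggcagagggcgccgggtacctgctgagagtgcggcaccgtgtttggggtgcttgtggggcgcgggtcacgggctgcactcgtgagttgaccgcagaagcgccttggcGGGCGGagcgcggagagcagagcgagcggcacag
Drd5, chr5:38319259-38319558, plus strand: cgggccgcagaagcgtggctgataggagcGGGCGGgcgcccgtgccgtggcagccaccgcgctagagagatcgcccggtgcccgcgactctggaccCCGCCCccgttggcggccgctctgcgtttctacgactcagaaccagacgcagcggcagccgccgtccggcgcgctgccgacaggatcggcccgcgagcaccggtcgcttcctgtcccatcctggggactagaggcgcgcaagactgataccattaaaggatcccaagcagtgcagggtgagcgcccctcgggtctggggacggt
Maoa, chrX:16619448-16619747, plus strand: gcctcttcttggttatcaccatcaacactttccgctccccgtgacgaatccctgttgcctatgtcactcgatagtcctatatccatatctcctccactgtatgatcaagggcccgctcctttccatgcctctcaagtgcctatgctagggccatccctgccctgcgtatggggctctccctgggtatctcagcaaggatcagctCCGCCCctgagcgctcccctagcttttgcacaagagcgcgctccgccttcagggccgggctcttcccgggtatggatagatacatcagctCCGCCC

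The windows were rich in G and C, at 65.7% for Drd1, 70.3% for Drd5 and 57.7% for Maoa, compared with a median of 52.7% over 32851 windows of the same length. The Drd1 window held 1 GC box, and the Drd5 and Maoa windows held 2 each. A GC box on either strand was found in 35.7% of all windows. The glucocorticoid receptor half-site AGAACA or TGTTCT, present in 19.0% of all windows, was in none of the printed ones. It was also missing from a second annotated Drd1 start. The cyclic AMP response half-site TGACG or CGTCA, present in 20.8% of all windows, occurred once, in Maoa. Ppp1r1b and Maob were not matched to a window.

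Drd1 rose with DEX in AS animals. Its normalized counts were 62.6, 121, 64.0 and 146 in the saline-treated AS libraries 8, 14, 40 and 44, and 187, 146, 191 and 97.9 in the DEX-treated AS libraries 38, 42, 60 and 72. The groups overlapped, and libraries 8 and 40 were the lowest of the series. The means were 98.5 ± 41.9 and 155 ± 43.4 (SD, n = 4), and the log2 fold change was 0.70 (SE 0.24, adjusted p = 0.0874 by limma). This was 1 of the 5 members, beside 8.8% of all genes called in either direction and 3.83% called higher. For Drd1 itself, the change was not called when only the 2 AS groups entered the model (adjusted p = 0.295). It fell to 0.17 (adjusted p = 0.885) without the 3 libraries low in deep layer markers, 2 of which were saline-treated AS libraries 8 and 40, and to 0.04 (adjusted p = 0.961) when the 5 libraries high in olfactory bulb markers were left out as well. That last model kept 1 saline-treated AS library, which was assumed to vary like the other groups.

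In controls Drd1 had normalized counts of 116, 130, 135 and 127 with saline and of 86.2, 113, 136 and 80.2 with DEX. The saline-treated controls were the tightest of all groups, at 127 ± 7.93 (SD, n = 4), and all 4 lay within the range of the DEX-treated controls. The log2 fold change of DEX in controls was −0.32 (SE 0.24, adjusted p = 0.601, 6.51% of all genes and 0 members called), and in PS animals it was 0.14 (SE 0.24, adjusted p = 0.893). The DEX response of Drd1 in AS animals exceeded that in controls by 1.02 on the log2 scale (SE 0.34), which was not called (adjusted p = 0.176, 0.349% of all genes called) and was 0.41 (adjusted p = 0.998) without the 3 libraries low in deep layer markers. It exceeded that in PS animals by 0.56 (SE 0.34, adjusted p = 0.9997, 0 of all genes called). With DEX, AS animals had 0.56 higher log2 Drd1 than controls (SE 0.24, adjusted p = 0.305), or 0.48 without those libraries (adjusted p = 0.393). By mean level Drd1 ran from DEX-treated AS, DEX-treated PS, saline-treated controls and saline-treated PS to DEX-treated controls and saline-treated AS, and each neighbouring pair overlapped.

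Drd5 was higher with DEX in PS animals without passing the test. Saline-treated PS libraries 2, 28, 62 and 68 had 61.2, 55.2, 74.2 and 83.0 normalized counts, and DEX-treated PS libraries 6, 34, 52 and 56 had 121, 112, 151 and 126. All 4 DEX-treated libraries lay above all 4 saline-treated ones, as they did for 5.55% of all genes. The means were 68.4 ± 12.6 and 128 ± 16.4 (SD, n = 4), and the log2 fold change was 0.90 (SE 0.41, limma, adjusted p = 0.319). The SE came from all 6 groups. With only the 2 PS groups in the model the SE was 0.16 and the same difference was called (adjusted p = 0.00756), as it was without the 3 libraries low in deep layer markers (adjusted p = 0.010). No PS library was among those 3, so that leaving them out changed only the estimate of the spread. As they were the lowest in Drd5 and chosen after seeing the data, this last call is not independent of its values.

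Those 3 libraries had the lowest values of Drd5. Saline-treated AS libraries 8, 14, 40 and 44 had 42.5, 84.2, 16.3 and 92.7 normalized counts, while DEX-treated controls 101, 108, 112 and 122 had 27.4, 107, 122 and 72.0. The value of AS library 40 rested on 24 reads, with an exact 95% Poisson interval of 10.47 to 24.31 normalized counts, which covers counting error only. DEX-treated AS libraries had 104, 96.4, 121 and 64.5, which overlapped the saline-treated ones. The log2 fold change of DEX was 0.94 in AS animals (SE 0.41, adjusted p = 0.208) and 0.59 averaged over the 3 phenotypes (SE 0.24, adjusted p = 0.118). With each library left out the difference in AS animals ran from 0.44 to 1.25 (adjusted p = 0.653 to 0.0615), and it was called by limma in this series of models only without saline-treated AS 44. It was 0.09 (SE 0.25, adjusted p = 0.952) without the 3 libraries low in deep layer markers and 0.02 (adjusted p = 0.977) without those high in olfactory bulb markers as well. The average was called by edgeR (adjusted p = 0.0780), by DESeq2 (adjusted p = 0.0975) and by limma without DEX-treated control 101, saline-treated AS 14 or 44 or DEX-treated AS 72. Without the 3 libraries low in deep layer markers it was 0.46 and called (adjusted p = 0.0239), again with the lowest Drd5 values left out. In controls it was −0.07 (SE 0.41, adjusted p = 0.969) and became 0.38 without DEX-treated control 101. The antisense gene Gm26560 overlaps Drd5 on the other strand. The libraries were stranded, but the strand setting of the counting is not given in the sources used here, so that reads of the pair cannot be told apart.

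Drd1 and Drd5 varied together across the 24 libraries. On log2 values Pearson's r was 0.75 and Spearman's rho 0.62 (two-sided permutation tests, adjusted p = 6.0e-04 and 0.0148 over 10 pairs of members). The raw p-values by permutation were 6.0e-05 and 0.00148. Without the 2 libraries farthest from the median of Drd1, r was 0.59, and with group means removed it was 0.73. Of the other 9 pairs, none passed an adjusted p of 0.05 by Pearson's r, 2 had an unadjusted permutation p under 0.1 and Ppp1r1b with Maob had r = 0.52 (permutation p = 0.0101, adjusted p = 0.0504, rho = 0.47). Ppp1r1b and Maoa had rho = −0.54 (permutation p = 0.00748, adjusted p = 0.0374) and r = −0.37 (permutation p = 0.0709, adjusted p = 0.236).

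The proportion of the receptors to each other is given as a description. The ratio of Drd5 to Drd1 normalized counts was 0.576 ± 0.0492 in saline-treated PS animals and 0.984 ± 0.141 in DEX-treated PS animals (SD, n = 4). These ranges, 0.527 to 0.637 and 0.818 to 1.15, did not overlap. Drd5 alone did not overlap in PS animals either, as 5.55% of all genes were higher without overlap, so that the ratio is no separate result. In AS animals the ratio was 0.566 ± 0.208 with saline and 0.629 ± 0.0485 with DEX, and in controls it was 0.610 ± 0.170 and 0.765 ± 0.299, with overlapping ranges in both phenotypes. No test was run on the ratio.

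**Figure D2:**
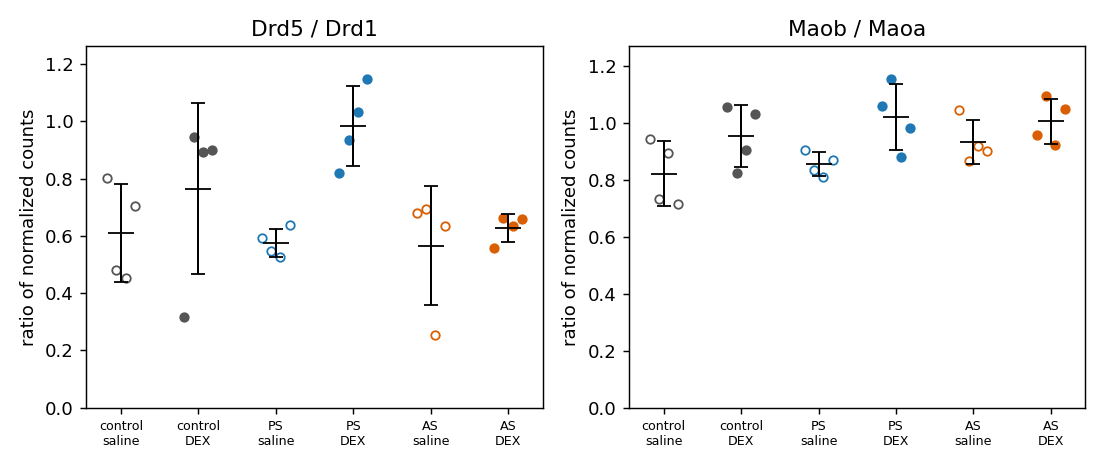
Ratio of normalized counts of Drd5 to Drd1 and of Maob to Maoa in each library by group, with open points for saline, filled points for DEX and black marks for the mean and SD of 4 libraries. The Drd5 to Drd1 ratio of DEX-treated PS libraries lay between 0.818 and 1.15, above the saline-treated PS libraries, and the lowest single ratio, 0.255, was in a saline-treated AS library.

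The genes whose log2 values were most like Drd1 over the 24 libraries were Vxn (Pearson's r = 0.90), Nxph3 (0.89) and Fezf2 (0.89). They were picked from 12009 genes whose mean reached 100 normalized counts. For Drd5 they were Fezf2 (0.87), Adgra1 (0.84) and Nxph3 (0.84), among 12010 genes. Fezf2 encodes a transcription factor of subcerebral projection neurons in layer 5. These coefficients are descriptions of genes picked as the highest, from libraries that differed in depth and in tissue markers, and have no test. With group means removed they were 0.90 for Fezf2 with Drd1 and 0.89 with Drd5.

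Fezf2 had 451, 855, 376 and 1088 normalized counts in saline-treated AS libraries 8, 14, 40 and 44, and 364 in DEX-treated control 101. Those 3 low libraries were the ones low in Drd5 too. Its log2 fold change with DEX was 0.58 in AS animals (limma, adjusted p = 0.269), 0.54 in PS animals (adjusted p = 0.418) and −0.59 in controls (adjusted p = 0.303). Without the libraries low in deep layer markers it was −0.04 in AS animals (adjusted p = 0.981). Fezf2 belongs to the list whose sum picked these libraries, so that the smaller difference follows in part from the choice.

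Markers of other cell types were called in both directions in the comparison of DEX with saline in AS animals, where 8.8% of all genes were called. DEX raised 2 of 7 tested deep layer genes, Bcl11b by 0.75 (adjusted p = 0.0134) and Tbr1 by 0.27 (adjusted p = 0.0756), 2 of 6 oligodendrocyte genes, among them Mobp by 0.96 (adjusted p = 0.00222), 2 of 7 genes of GABAergic neurons and 1 of 5 each of pyramidal and striatal neurons. It lowered 5 of 7 endothelial genes (median log2 fold change −0.73), 3 of 6 mural genes (−0.53), 3 of 6 microglial genes (−0.36) and 1 of 6 genes of the leptomeninges (−0.61). Of 8 astrocyte genes 1 rose and 2 fell, and 0 of 6 upper layer genes and 0 of 1 tested olfactory bulb gene were called. Without the 3 libraries low in deep layer markers, where 2.54% of all genes were called, 0 deep layer and 0 oligodendrocyte genes were called, and 1 endothelial, 0 mural and 2 microglial genes were lower. Bcl11b was then 0.38 (adjusted p = 0.388), Tbr1 0.19 (adjusted p = 0.485) and Mobp 0.65 (adjusted p = 0.156). Bcl11b and Tbr1 belong to the list whose sum picked these libraries, among them saline-treated AS 8 and 40. The loss of the deep layer calls therefore follows in part from the choice.

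Across the 24 libraries the mean log2 level of the marker lists gave Pearson's r with Drd1 of 0.81 for oligodendrocyte, 0.65 for striatal, −0.79 for astrocyte and −0.77 for upper layer genes. With Drd5 these were 0.65, 0.63, −0.69 and −0.71. Other lists had r of like size. For Drd1 and Drd5 it was −0.63 and −0.63 with mural, 0.60 and 0.59 with GABAergic and −0.44 and −0.65 with microglial genes. With genes of the leptomeninges it was −0.52 and −0.60. For deep layer genes as a list r was 0.30 with Drd1 and 0.44 with Drd5. They are descriptions of libraries that differed in depth and in tissue markers, and have no test.

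Summed deep layer markers ran from 5783 to 7814 normalized counts in saline-treated and from 7344 to 9995 in DEX-treated AS animals. In PS animals they ran from 6642 to 7082 and from 7822 to 9184, and in controls from 8071 to 9930 and from 5985 to 8971. Summed oligodendrocyte markers ran from 19293 to 32942 with saline and from 31022 to 45760 with DEX in AS animals. Their range was 23772 to 34766 and 30457 to 39239 in PS animals, and 29477 to 46709 and 25638 to 36871 in controls. Of 9 genes marking striatal medium spiny neurons, which hold most Drd1 in the forebrain, 5 were tested. Their sum was 2645 to 3245 and 3783 to 4207 in saline- and DEX-treated AS animals, 2914 to 3373 and 3349 to 4377 in PS animals, and 3388 to 3535 and 2627 to 3887 in controls. With DEX in controls 1 of the 5 was called higher and 1 lower, beside 6.51% of all genes, with a median log2 fold change of 0.04. The lower was Scn4b, which fell by 0.78 (adjusted p = 0.0572). Its response in AS exceeded that in controls by 1.40 (adjusted p = 0.0941). These Scn4b calls were lost without the libraries low in deep layer markers, at −0.62 (adjusted p = 0.222) and 1.03 (adjusted p = 0.998). In that model 1 of the 5 was called higher and 0 lower with DEX in each phenotype. Adora2a, Gpr6, Isl1 and Six3 were not analysed here. The part of these cell types in the receptor values was not tested.

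**Figure D3:**
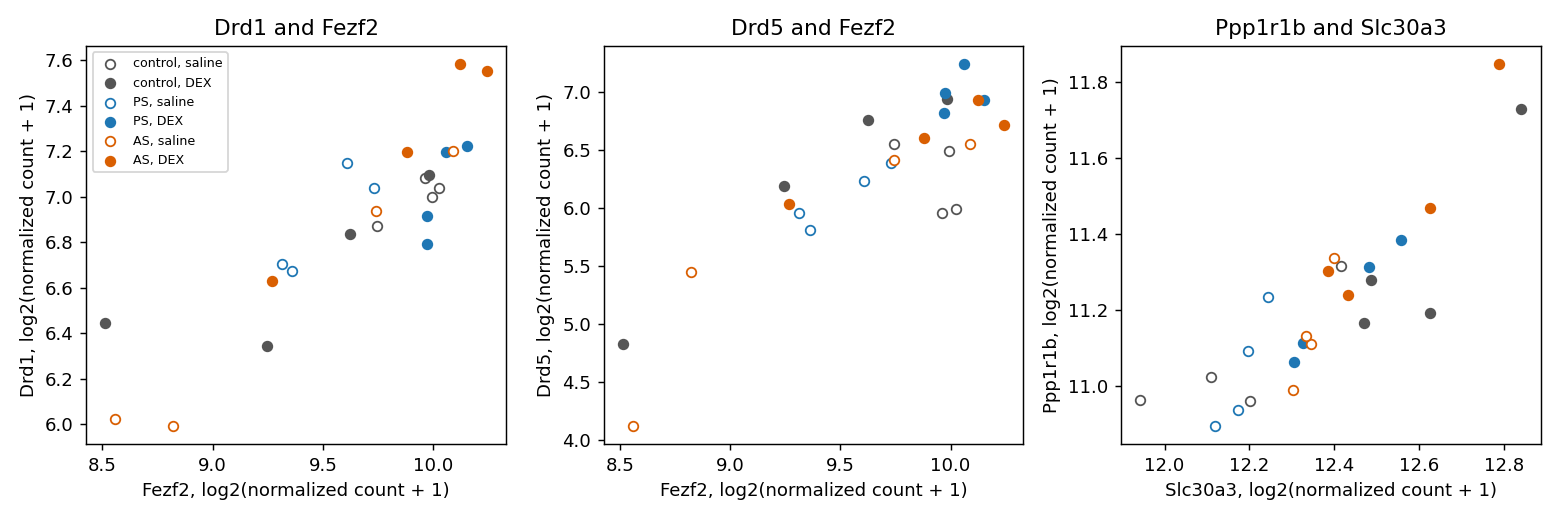
Log2(normalized count + 1) of Drd1 and Drd5 against Fezf2 and of Ppp1r1b against Slc30a3, 1 point per library, colored by phenotype with open points for saline and filled points for DEX. The lowest Fezf2 libraries, 2 of saline-treated AS and 1 of DEX-treated control animals, were also lowest in Drd5, and Pearson's r was 0.89, 0.87 and 0.88 in the 3 panels.

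Ppp1r1b (ENSMUSG00000061718.12, chromosome 11, 98348404 to 98357796, plus strand) rose with DEX when the 3 phenotypes were averaged. The log2 fold change was 0.26 (SE 0.07, limma, adjusted p = 0.0211), which is a 1.20-fold rise, and 15.5% of all genes were called in that comparison, 7.49% as higher. It was 0.28 in controls (SE 0.13, adjusted p = 0.299), 0.18 in PS (SE 0.13, adjusted p = 0.641) and 0.32 in AS animals (SE 0.13, adjusted p = 0.160), and none of these 3 passed on its own. The DEX response differed by 0.05 between AS and control animals (SE 0.18, adjusted p = 0.947) and by −0.10 between PS and control animals (SE 0.18, adjusted p = 0.916).

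Saline-treated controls 106, 107, 109 and 117 had 2546, 1988, 2080 and 1992 normalized counts of Ppp1r1b, and DEX-treated controls 101, 108, 112 and 122 had 3390, 2338, 2293 and 2480. Of the DEX-treated controls only library 101 lay above every saline-treated one. In PS animals the values were 1956, 2406, 2181 and 1901 with saline and 2214, 2671, 2137 and 2542 with DEX. In AS animals they were 2583, 2029, 2207 and 2241 with saline and 2522, 2414, 2832 and 3684 with DEX. All 3 pairs of groups overlapped. The average rise was 0.21 (adjusted p = 0.175) without the 5 libraries high in olfactory bulb markers and 0.17 (adjusted p = 0.322) without those low in deep layer markers as well. The gene 1700003D09Rik overlaps Ppp1r1b on the other strand, with the same limit on strand.

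The libraries with the highest Ppp1r1b, DEX-treated AS 72 and DEX-treated control 101, were low in Drd1, at 97.9 and 86.2 normalized counts. With group means removed, r between Ppp1r1b and Drd1 was −0.57, compared with −0.22 over all libraries (permutation p = 0.311, adjusted p = 0.445, rho = −0.22). The genes most like Ppp1r1b were Slc30a3, which encodes the zinc transporter of glutamatergic vesicles (r = 0.88), Hhatl (0.85) and Aldh1l1, an astrocyte enzyme (0.85). All 3 rose with DEX averaged over phenotypes, by 0.30 (adjusted p = 4.41e-04), 0.27 (adjusted p = 0.0121) and 0.28 (adjusted p = 3.86e-04). In controls Slc30a3 rose by 0.44 (adjusted p = 0.00588) and Aldh1l1 by 0.30 (adjusted p = 0.0536). Aldh1l1 also rose in PS animals, by 0.34 (adjusted p = 0.0245).

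**Figure D4:**
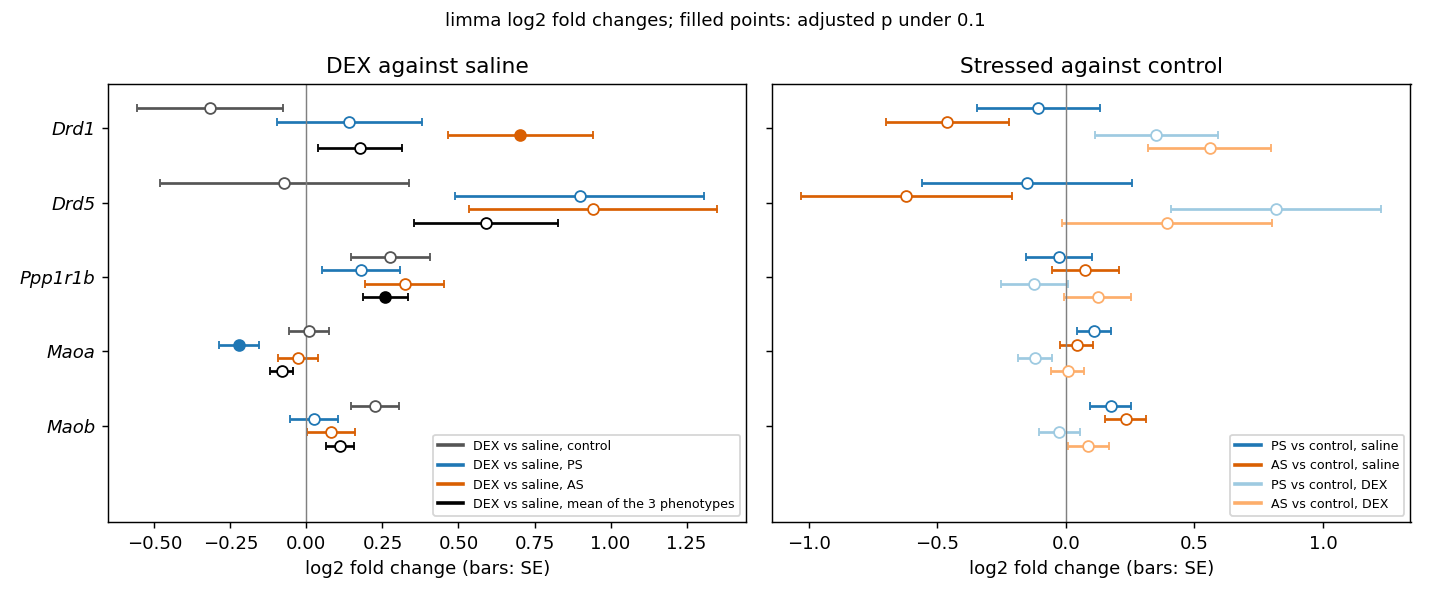
Log2 fold changes from limma with their SE for the 5 members, for DEX against saline on the left and for stressed against control animals on the right, where filled points have an adjusted p under 0.1. The filled points are Drd1 in AS, Ppp1r1b averaged over the 3 phenotypes and Maoa in PS, and no member passed in the comparisons of stressed with control animals.

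Maoa (ENSMUSG00000025037.6, chromosome X, 16619698 to 16687818, plus strand) fell with DEX in PS animals. Saline-treated PS libraries 2, 28, 62 and 68 had 875, 867, 903 and 887 normalized counts, and DEX-treated PS libraries 6, 34, 52 and 56 had 734, 714, 828 and 756. Every DEX-treated library lay below every saline-treated one, as for 4.57% of all genes. The means were 883 ± 15.8 and 758 ± 49.6 (SD, n = 4). The log2 fold change was −0.22 (SE 0.07, limma, adjusted p = 0.0595), and 2.65% of all genes were called lower in this comparison, 5.4% in either direction. Without the 5 libraries high in olfactory bulb markers it was −0.20 (adjusted p = 0.364), and leaving out any of 7 of the 8 PS libraries (all but DEX-treated 52) ended the call, with adjusted p-values up to 0.179.

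In the other phenotypes Maoa passed no test. Its log2 fold change with DEX was 0.01 in controls (SE 0.07, adjusted p = 0.982) and −0.03 in AS animals (SE 0.07, adjusted p = 0.889). The DEX response in PS animals differed from that in controls by −0.23 (SE 0.09, adjusted p = 0.420), and that in AS animals from PS by 0.19 (SE 0.09, adjusted p = 0.9997), so that a difference between phenotypes was not called. In each of these comparisons of responses 0 of all genes were called. The average over phenotypes was −0.08 (SE 0.04, adjusted p = 0.205). Control libraries ran from 737 to 878 with saline and from 804 to 873 with DEX, and AS libraries from 771 to 889 and from 767 to 878. The genes most like Maoa were Rock1 (r = 0.76), Zfp945 (0.76) and Arl4a (0.75), or 0.80, 0.65 and 0.80 with group means removed. Zfp945 fell with DEX in PS animals by 0.41 on the log2 scale (adjusted p = 0.0363).

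Maob (ENSMUSG00000040147.14, minus strand) lies next to Maoa on chromosome X, from 16709282 to 16817366, with 21463 bases between them. Saline-treated controls 106, 107, 109 and 117 had 697, 643, 721.9 and 618 normalized counts, the lowest group mean. Saline-treated PS animals had 794, 722.4, 733 and 772, and saline-treated AS animals had 807, 735, 801 and 803. Both stressed groups lay above all saline-treated controls, as did the values of 5.16% of all genes in PS and 3.45% in AS animals. In PS and in AS the gap was within counting error. The nearest values, 722.4 in PS library 28 and 721.9 in control 109, had 95% Poisson intervals of 687 to 759 and 667 to 780. The nearest AS value, 735 in library 14, had an interval of 690 to 782. The log2 difference from controls was 0.17 in PS (SE 0.08, adjusted p = 0.345) and 0.23 in AS animals (SE 0.08, adjusted p = 0.299), and neither passed the test. In PS it was 0.11 (adjusted p = 0.764) without the libraries high in olfactory bulb markers, and in AS 0.20 (adjusted p = 0.427) without those low in deep layer markers.

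DEX-treated controls had Maob values of 857, 720, 731 and 828 normalized counts, of which 720 fell within the range of saline-treated controls. The log2 fold change of DEX was 0.23 in controls (SE 0.08, adjusted p = 0.124), 0.03 in PS (SE 0.08, adjusted p = 0.951) and 0.08 in AS animals (SE 0.08, adjusted p = 0.681). In controls it was 0.16 (adjusted p = 0.509) without the libraries high in olfactory bulb markers and 0.18 (adjusted p = 0.377) without those low in deep layer markers. These control comparisons share the 4 saline-treated controls with the stress comparisons. Averaged over phenotypes the DEX difference was 0.11 (SE 0.05, adjusted p = 0.138). In order of mean level, saline-treated controls (670 ± 47.9) were lowest, followed by saline-treated PS (755 ± 33.3). This was the only neighbouring pair of groups without overlap, with nearest values of 721.9 and 722.4 that lay within counting error. The genes most like Maob were Tsnax (r = 0.75), Hacd3 (0.73) and Calb1 (0.71), or 0.63, 0.60 and 0.59 with group means removed. Tsnax rose with DEX in controls by 0.32 (adjusted p = 0.00976) and was 0.33 higher in saline-treated PS animals than in controls (adjusted p = 0.0325).

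The correlation of Maoa with Maob over the 24 libraries was near 0 (r = −0.06, permutation p = 0.773, adjusted p = 0.858, rho = −0.08). The ratio of Maob to Maoa normalized counts was 0.822 ± 0.114 in saline-treated and 0.954 ± 0.109 in DEX-treated controls. It was 0.855 ± 0.0418 and 1.02 ± 0.116 in PS animals and 0.934 ± 0.0775 and 1.01 ± 0.0783 in AS animals (SD, n = 4). Each pair of saline and DEX ranges overlapped.

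In the 3 comparisons between saline-treated groups, limma called 0 of the 5 members, beside 1.51% of all genes for PS against control, 0.185% for AS against control and 0 genes for AS against PS. At an unadjusted p under 0.05 Maob counted in the first and in the second of these, as did 13.2% and 11% of all genes, and no member in the third, where 4.79% of all genes did. edgeR and DESeq2 called 0 members in each of the 3, and of all genes 0 and 11 for AS against PS. With DEX, limma, edgeR and DESeq2 again called 0 members between phenotypes, beside 0.206% of all genes by limma for PS against control, 0.868% for AS against control and 0 genes for AS against PS (edgeR 0, DESeq2 4). At an unadjusted p under 0.05 only Drd1 counted there, in AS against control, and the shares of all genes were 14%, 13.5% and 4.12%. No member was called for a difference between DEX responses by any of the 3 tools. Of all genes, limma called 0 for PS minus control, 0 for AS minus PS and 0.349% for AS minus control.

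Other genes of the catecholamine pathway were taken from 4 lists. Of 8 genes for synthesis, storage and uptake, 2 were tested, and Ddc, which encodes the decarboxylase that makes dopamine from L-DOPA, rose with DEX in every phenotype. Its log2 fold change was 1.01 in controls (SE 0.16, adjusted p = 3.55e-04), 0.90 in PS (SE 0.16, adjusted p = 0.00140) and 0.81 in AS animals (SE 0.16, adjusted p = 0.00328). Ddc had 80.6 ± 17.1 normalized counts in saline-treated and 161 ± 13.2 in DEX-treated controls (SD, n = 4). Its saline and DEX libraries did not overlap in any phenotype. In PS animals 5.55% of all genes were higher without overlap, and the shares in controls and AS animals are not given here. Slc29a4, a monoamine transporter, was not called in these comparisons. The shares of all genes called were 6.51% in controls, 5.4% in PS and 8.8% in AS animals.

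Of 9 further breakdown genes 8 were tested. With DEX 2 of the 8 were called in controls, 1 each in PS and AS animals and 3 on average. The shares of all genes were 6.51%, 5.4%, 8.8% and 15.5%. Sult1a1, a sulfotransferase of phenols and catechols, rose with DEX by 1.57 in controls (SE 0.18, adjusted p = 3.73e-06), 1.34 in PS (SE 0.18, adjusted p = 4.65e-05) and 1.22 in AS animals (SE 0.18, adjusted p = 1.36e-04). Its normalized counts went from 203 ± 49.1 to 601 ± 105 in controls (SD, n = 4). Akr1b3, an aldose reductase, fell in controls by 0.21 (adjusted p = 0.0710), and averaged over phenotypes it fell by 0.13 (adjusted p = 0.0191) while Aldh1a1 rose by 0.26 (adjusted p = 0.0382). In controls 0 of the 8 were called lower without the libraries high in olfactory bulb markers, and 0 without those low in deep layer markers. On average 1 rather than 2 were called higher without the former set, beside 12.7% of all genes called in either direction.

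**Figure D5:**
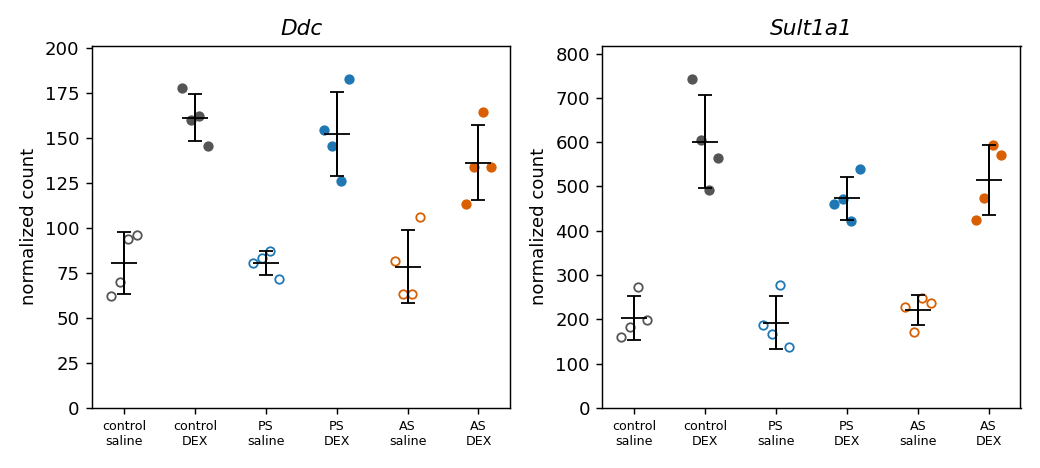
Normalized counts of Ddc and Sult1a1 in each library by group, with open points for saline, filled points for DEX and black marks for the mean and SD of 4 libraries. Ddc and Sult1a1 were higher in every DEX-treated than in every saline-treated library of the same phenotype, as were 5.55% of all genes in PS animals.

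All 22 genes for signal transduction below the receptors were tested. Gnai2, an inhibitory G protein subunit, fell with DEX in AS animals by 0.31 (SE 0.08, adjusted p = 0.0270) and was the only one called within a phenotype. Without the libraries low in deep layer markers it was −0.27 (adjusted p = 0.252). Averaged over phenotypes 3 fell, Prkar2b by 0.19 (adjusted p = 0.00883), Gnai2 by 0.17 (adjusted p = 0.0237) and Pde1b by 0.10 (adjusted p = 0.0666). Cdk5, a kinase that phosphorylates DARPP-32, rose by 0.12 (adjusted p = 0.0949). The median log2 fold change of the list was 0.0025, beside −0.0023 for all genes, and 4 of 22 calls compare with 15.5% of all genes. Without the libraries high in olfactory bulb markers 0 were called higher and 3 lower on average. Without those low in deep layer markers 0 were called higher and 2 lower. Of all genes 12.7% were called in each of these models.

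All 10 receptor regulators were tested. Grk3, a receptor kinase, rose with DEX in controls by 0.26 (adjusted p = 0.0768) and averaged over phenotypes by 0.16 (adjusted p = 0.0235), whereas Rgs2, which limits G protein signaling, fell by 0.14 on average (adjusted p = 0.0367). Of the 10, 1 was called in controls and 2 on average over phenotypes, beside 6.51% and 15.5% of all genes. The median of the list was −0.03 on average over phenotypes. In controls 0 of the 10 were called without the libraries high in olfactory bulb markers, beside 4.05% of all genes. Without those low in deep layer markers 0 were called in controls, beside 4.2%. On average 1 was called higher and 1 lower in each of these models. No gene of the 4 lists was called by limma in the saline comparisons of stressed animals with controls.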

How the data were processed

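24 PFC RNA-seq libraries were grouped by the sample labels. The authors trimmed reads with fastp 0.20.1, aligned them to mm10 with HISAT2 2.2.1, counted them with featureCounts (Subread 2.0) on GENCODE vM22 and deposited a signal, the gene counts divided by 1 DESeq2 size factor per library. The p-values in the authors' deposited comparison tables, made in DESeq2 1.36.0, were used only to see which 14060 genes were tested, and their fold changes were not used. All deposited values (100%, tolerance 0.01 read) were whole reads times the worth of 1 read, so reads were recovered for count models.

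limma 3.58.1 (R 4.3.3, trend, all 24 libraries, 1 mean per group) was fitted on log2(normalized count + 1), and fold changes are on that scale, which understates those of low genes. Called means a Benjamini-Hochberg adjusted p under 0.1 over 14060 genes. Alternatives were edgeR 4.0.16 and DESeq2 1.42.0 on recovered reads, a pseudocount of 8, filters, all genes, quantile normalization, a library size covariate, only the groups compared and each library left out. Models without libraries high in olfactory bulb or low in deep layer markers were chosen after seeing the data. limma, edgeR and DESeq2 were tested on simulated counts.

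The members and lists were chosen with earlier results of these data known. Named were each member in each DEX comparison, pairs of a member and a comparison with an unadjusted p under 0.05, up to 3 called genes with the largest change per pathway list and comparison, the 3 genes most correlated with each member, and Fkbp5 and Tsc22d3 (which rose by 1.00 to 1.11) as a check of DEX labels. Other cell markers were chosen after their values were seen. Exon lengths were taken from GENCODE M21 (13927 of 14074 gene IDs matched). P-values of the models weigh differences between group means against the spread between mice. The permutation tests of correlation shuffled the libraries without regard to group. Low counts limit Drd1 and Drd5, and intervals cover counting error only. Some genes of the lists are not reported here.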

Additional observations from a re-analysis of the deposited data

Results flagged for a closer look

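In 4 of 30 sets of 4 libraries (5 members in 6 groups), 1 library stood far from the other 3 by Dixon's criterion, which chance exceeds in about 1 of 20 sets. Within their groups of 4, saline-treated control 106, at 2546 normalized counts, and DEX-treated control 101, at 3390, were highest in Ppp1r1b. Likewise within its own group, DEX-treated control 108 was highest in Maoa, at 873 normalized counts, and saline-treated AS 14 was lowest in Maob, at 735. DEX-treated control 101 was also 1 of the 3 libraries low in deep layer markers and AS 14 was 1 of the 5 high in olfactory bulb markers. Ppp1r1b averaged over phenotypes remained called with any single library left out, with log2 fold changes between 0.22 and 0.29.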

How the results depend on the processing

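No paired analysis was possible because mouse numbers do not recur between groups. The main model called 1 member each for DEX in PS, DEX in AS and the DEX average, and 0 in the other 10 comparisons. For DEX in PS, 2 members were called with only the groups compared and without the libraries low in deep layer markers, 0 without those high in olfactory bulb markers and 0 to 1 with each library left out. For DEX in AS the number was 0 with only the groups compared, with library size as a covariate, without the libraries low in deep layer markers and without both sets, 2 with DESeq2 and 0 to 2 with each library left out. Drd1 in AS then lay between 0.52 and 0.92 (adjusted p = 0.0145 to 0.339), and its call was lost without saline-treated control 107, DEX-treated control 108, saline-treated AS 8 or 40, or DEX-treated AS 38, 42 or 60. For the DEX average 2 were called with quantile normalization, edgeR, DESeq2 and without the libraries low in deep layer markers (Drd5 in each beside Ppp1r1b), 0 without those high in olfactory bulb markers and 1 to 2 with each library left out. DEX in controls gave 0 to 1 (Maob), and the AS minus control response 0 to 1 (Drd1), with each library left out. Drd5 with DEX in controls changed sign from −0.07 to 0.11 with edgeR, 0.10 with DESeq2, 0.0058 without the libraries high in olfactory bulb markers, 0.38 without those low in deep layer markers and 0.68 without both, and ranged from −0.32 to 0.38 with each library left out. With each library left out, Maoa ranged from −0.043 to 0.041 in controls and from −0.070 to 0.0092 in AS, and Maob in PS from −0.0088 to 0.050. The cause was not tested. The 5 libraries and the 3 libraries were chosen after seeing the data.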
